A study of Rattus norvegicus with 4 samples.

Results

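The genes described here encode the nuclear subunits of oxidative phosphorylation, the 5 enzyme complexes of the inner mitochondrial membrane, in the hippocampus of newborn rats. They were chosen with earlier results of these data known. Rows with a numeric gene ID were taken by symbol (Nduf followed by a, b, c, s or v and a digit, Sdha to Sdhd, Uqcr, Cyc1, Cox4 to Cox8 and Atp5), without regard to their values. This gave 78 of the 17445 rows listed in any library, of which 13984 carry a gene ID. In each library 77 of the 78 were listed, and 76 were listed in all 4 libraries. Ndufa10l1 was listed only in the male libraries and Cox6a2 only in the female libraries. All 76 had a mean of at least 1 FPKM (fragments per kilobase of transcript, scaled to library size), the filter used for the tests. By symbol, 33 rows belonged to complex I, 4 to complex II, 9 to complex III, 15 to complex IV and 17 to complex V.

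Complexes I and II take electrons from NADH and succinate, complex III passes them to cytochrome c, and complex IV hands them to oxygen. Complexes I, III and IV pump protons, and complex V, the ATP synthase, uses the gradient to make ATP. Neurons depend on this pathway for synaptic transmission, and the newborn brain is still shifting towards it. Complex II is encoded in the nucleus alone, whereas the other 4 complexes also hold subunits encoded by mitochondrial DNA, which were not analysed here.

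The samples were hippocampi of Wistar pups on postnatal day 1. Their dams, 10 weeks old, had received bisphenol A (BPA), a plasticizer with estrogenic activity, at 5000 µg per kg of body weight each day, or vehicle, from gestation day 1 until birth. Control males, BPA males, control females and BPA females each gave 1 library, a pool of 3 hippocampi by the series' description, and values of 4 libraries are given in that order. The study's methods speak of pups from independent litters and do not describe pooling. No group has a replicate library, so the spread that enters a test is that between the sexes or between the treatments. BPA against control and female against male were each 2 libraries against 2, and an exact two-sided permutation test of such a comparison cannot go below p = 0.333.

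The libraries were of like depth but differed in markers of neighbouring tissue. The steps of the low values gave 8658000 to 8934000 fragments per library. All 11 markers of hippocampal neurons were listed, with summed levels of 429 to 483 FPKM. The 9 choroid plexus markers summed to 276, 716, 19.5 and 53.4 FPKM, far higher in males and highest in BPA males. Most of this was Ttr (256, 690, 3.96 and 42.4 FPKM). Folr1 (4.75, 6.63, 2.18 and 1.69 FPKM) and Clic6 (1.34, 2.99, 0.26 and 0.16 FPKM) were also higher in males. Enpp2 (10.9, 11.1, 10.0 and 7.63 FPKM) differed little between males and control females. Folr1, Clic6 and Enpp2 were lower with BPA in females, where Ttr was higher. The 10 markers of meninges and vessel wall summed to 79.2, 55.4, 159 and 69.4 FPKM, highest in control females. The red blood cell markers (7 of 8 listed) summed to 1342, 1152, 1075 and 1359 FPKM, high in control males and BPA females. Almost all of this was Hba1, Hba2 and Hbb. Alas2 (2.42, 2.11, 2.84 and 2.32 FPKM) and Ahsp (1.16, 1.64, 0.46 and 0.93 FPKM) had other orders. The summed FPKM of the respiratory genes was also higher in control males and BPA females. As a share of all FPKM, however, control females (2.28%) stood above control males (2.27%). Microglia (8 of 8 listed) summed to 41.0 to 51.5 FPKM and striated muscle (11 of 12 listed) to 13.2 to 17.9 FPKM. The part of these cell types in the results was not tested. Fewer cells of a type and less RNA per cell cannot be told apart in such bulk samples.

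Promoters are shown for 4 members, because they hold, or lack, the words bound by 3 factors known to drive respiratory genes and because Ndufs7, Cox4i1 and Cox7b recur below. RefSeq (assembly GRCr8) gave a window of 300 bases, from 250 before to 50 after the start site, for 65 of the 78 genes. Capitals mark the palindromic NRF1 word, the ETS word CCGGAAG, bound by factors such as GABP, and the YY1 word, on either strand. Ndufa11 (gene ID 301123, chr9:1637364-1637663, plus strand), an accessory subunit of complex I, held the NRF1 word at 2 overlapping positions, 97 and 91 bases before the start site, so that its capitals run through both. Cox4i1 (29445, chr19:65630133-65630432, plus strand), of complex IV, held the reversed ETS word 4 and 24 bases after it. Ndufs7 (362837, chr7:10110449-10110748, minus strand), which carries an iron-sulphur cluster of complex I, held the YY1 word 5 bases after it, spelled by its capitals. Cox7b (303393, chrX:75148786-75149085, plus strand), of complex IV, held none of the 3 words.
Ndufa11: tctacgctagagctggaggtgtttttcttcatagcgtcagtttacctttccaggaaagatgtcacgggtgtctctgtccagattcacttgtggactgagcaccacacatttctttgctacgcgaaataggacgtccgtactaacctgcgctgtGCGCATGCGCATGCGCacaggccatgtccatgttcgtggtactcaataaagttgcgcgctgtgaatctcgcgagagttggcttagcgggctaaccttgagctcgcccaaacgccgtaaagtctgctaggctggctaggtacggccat
Cox4i1: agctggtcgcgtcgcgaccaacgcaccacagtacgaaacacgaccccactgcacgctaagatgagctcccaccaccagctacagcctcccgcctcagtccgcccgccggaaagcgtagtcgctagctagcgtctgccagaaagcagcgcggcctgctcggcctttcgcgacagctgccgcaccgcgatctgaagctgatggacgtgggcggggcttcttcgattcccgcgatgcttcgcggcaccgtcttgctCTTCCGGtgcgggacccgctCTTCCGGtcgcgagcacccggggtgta
Ndufs7: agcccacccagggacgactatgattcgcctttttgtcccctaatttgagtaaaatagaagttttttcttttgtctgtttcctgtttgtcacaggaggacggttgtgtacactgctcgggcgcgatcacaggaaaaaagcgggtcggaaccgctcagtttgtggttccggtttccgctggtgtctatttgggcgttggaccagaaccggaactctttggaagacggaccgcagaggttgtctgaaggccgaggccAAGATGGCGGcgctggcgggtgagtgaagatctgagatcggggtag
Cox7b: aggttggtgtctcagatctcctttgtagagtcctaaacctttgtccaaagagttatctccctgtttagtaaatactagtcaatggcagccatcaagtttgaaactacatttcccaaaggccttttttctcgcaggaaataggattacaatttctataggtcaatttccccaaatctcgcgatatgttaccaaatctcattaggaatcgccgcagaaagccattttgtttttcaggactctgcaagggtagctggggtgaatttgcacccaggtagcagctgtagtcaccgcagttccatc

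Each word was found in a larger share of these promoters than of all 27457 genes with a promoter. The NRF1 word was in 4 of 65 (6.15% against 0.954%), the ETS word in 19 (29.2% against 9.63%) and the YY1 word in 8 (12.3% against 1.17%). A shorter NRF1 word, TGCGCA, which can overlap the long one and is not capitalised above, was in 20 (30.8% against 7.96%). Genes tested for expression here held the words more often than all genes, in 1.97%, 18.5%, 2.75% and 14.3% for NRF1, ETS, YY1 and the shorter word. These matches describe the letters only and were not related to binding.

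Respiratory genes were among the more abundant messages of the newborn hippocampus. Their median level was 98.3 FPKM, against 10.6 FPKM over the 13542 rows tested, and 27 of the 76 ranked among the top 500 of 16375 rows. Only 5 had a mean under 20 FPKM. The members differed far more between genes than between libraries, with means from 3.63 to 591 FPKM. For a typical member the highest library was 1.16 times the lowest, against 1.30 times for a typical row tested. The value was 1.24 times over the rows of at least 5 FPKM, and rows of matching level were not compared. Sdha (63.9, 61.6, 62.6 and 61.8 FPKM), Uqcr10 and Atp5j had the narrowest ranges among members of at least 20 FPKM, 1.04, 1.04 and 1.05 times. Ndufs7, Ndufs1 and Uqcrb had the widest, 1.53, 1.37 and 1.36 times.

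Levels followed the complexes. The median member stood at 81.7 FPKM in complex I, 76.3 in complex II, 109 in complex III, 215 in complex IV and 182 in complex V. Atp5b (gene ID 171374), the catalytic beta subunit of the ATP synthase, was the highest of all, at 595, 564, 595 and 609 FPKM. Next came Cox6a1 (431, 416, 345 and 395 FPKM), Atp5a1, the alpha subunit beside Atp5b (369, 381, 351 and 367 FPKM), and Cox4i1 (358, 323, 295 and 312 FPKM), the subunit through which ATP regulates complex IV. Among these 4, Atp5b was above the others in every library. The libraries of Cox4i1 and Atp5a1 overlapped, and so did those of Atp5a1 and Cox6a1.

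Complex I was led by subunits of its membrane arm, Ndufb8 (185, 196, 162 and 170 FPKM), Ndufb4 (138, 122, 141 and 145 FPKM) and Ndufb9 (118, 110, 111 and 132 FPKM). The nuclear core subunits were unequal. Ndufv2 stood at 91.2 to 108 FPKM and Ndufv1, which binds NADH, at 64.2 to 68.7 FPKM. Ndufs3 was at 52.1 to 55.4 FPKM and Ndufs8 at 47.8 to 59.8 FPKM. The lowest was Ndufs1 (gene ID 301458), the largest core subunit, at 32.7, 30.1, 40.7 and 29.7 FPKM, high in control females alone. The row named Ndufs6 matches a RefSeq entry now called Ndufs6-ps1, a pseudogene, so its 60.6 to 73.0 FPKM are uncertain.

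In complex II the iron-sulphur subunit Sdhb stood at 103, 97.9, 89.7 and 96.6 FPKM and the membrane anchor Sdhc at 81.0 to 89.2 FPKM. The other anchor, Sdhd, stood at 62.1 to 70.1 FPKM, close to the flavoprotein Sdha. In complex III, Uqcr10 (134 to 140 FPKM), Cyc1, cytochrome c1 (105 to 121 FPKM), and the hinge protein Uqcrh (102 to 123 FPKM) were highest, and Uqcrq was lowest (34.0 to 44.2 FPKM). The core proteins Uqcrc1 and Uqcrc2 and the Rieske protein Uqcrfs1 lay between 90.6 and 118 FPKM.

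**Figure D1:**
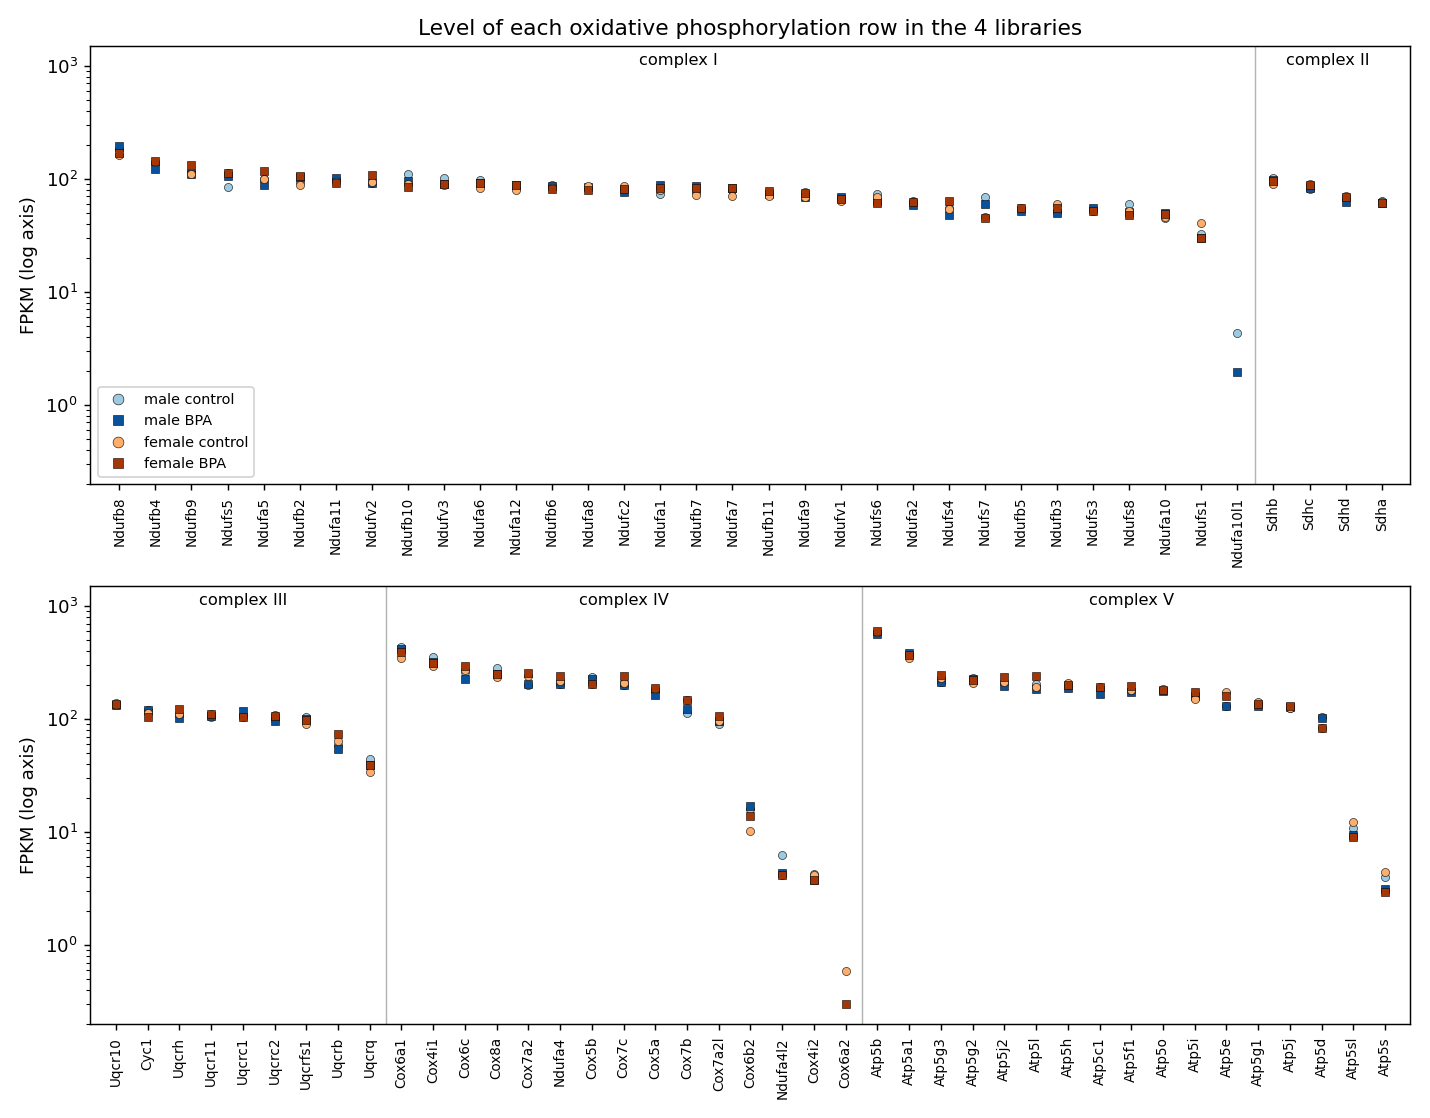
FPKM of 77 rows (log axis) in control males (light blue circles), BPA males (dark blue squares), control females (light orange circles) and BPA females (brown squares), ordered by mean within each complex. The 4 libraries of a gene mostly lie on top of each other, Atp5b leads at 564 to 609 FPKM, and 5 rows measured in all libraries fall under 20 FPKM, among them Cox4i2, Ndufa4l2 and Atp5s.

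Of the complex IV pairs listed with both forms, the ubiquitous form was far higher than the minor one. Cox4i2, the form known from lung and from low oxygen, stood at 4.26, 3.76, 4.17 and 3.76 FPKM, and Cox4i1 was 70.7 to 85.9 times as high. Ndufa4l2, induced by low oxygen in other settings, stood at 6.28, 4.34, 4.17 and 4.19 FPKM, high in control males, with Ndufa4 at 205 to 241 FPKM. Cox6a2, the muscle form, was listed for females alone, at 0.59 FPKM in controls and 0.30 FPKM with BPA, where Cox6a1 was at 345 and 395 FPKM. Cox6b2, a form best known from testis whose ubiquitous partner was not analysed here, was at 16.1, 17.2, 10.17 and 13.9 FPKM. Cox7a2, the non-muscle form, stood at 200 to 254 FPKM, and the related Cox7a2l, which helps build supercomplexes, at 91.2 to 107 FPKM. Cox8a, the form found in most tissues, was at 282, 251, 236 and 249.15 FPKM. Isoforms share sequence, and how the counting assigned shared reads could move these ratios.

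The proton-carrying ring of the ATP synthase is made of a c subunit encoded by 3 genes. Atp5g2 (233, 227, 210 and 223 FPKM) and Atp5g3 (215, 215, 230 and 245 FPKM) exceeded Atp5g1 (135, 131, 143 and 137 FPKM) in every library. Atp5g1 made up 22.6% to 24.6% of their sum. Atp5g2 was above Atp5g3 in both male libraries and below it in both female libraries. Atp5sl and Atp5s, which carry Atp5 symbols but are named Dmac2 and Dmac2l by RefSeq, stood at 9.16 to 12.3 and 2.98 to 4.43 FPKM, the lowest rows of the complex V group.

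With the sexes combined, no respiratory gene passed the test for a change with BPA, and the estimated changes were small. With limma on log2(FPKM + 1), 0 of 76 members passed a Benjamini-Hochberg adjusted p of 0.05, and 0 of the 13542 rows tested did (0%). At an unadjusted p under 0.05 there were 0 of 76 members in this limma fit, against 637 rows (4.7%, with 1.6% higher and 3.11% lower). The median log2 change of the members was 0.01, against -0.02 over all rows tested. BPA and control libraries did not overlap for 20 of 76 members (26.3%, against 33.6% of all rows tested). Of these, 9 were higher with BPA (11.8% against 13.8%) and 11 were lower (14.5% against 19.9%).

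The smallest p belonged to Ndufb2 (gene ID 362344), an accessory subunit of the membrane arm of complex I. It stood at 93.9 and 89.1 FPKM in male and female controls and 105 and 106 FPKM with BPA, so the groups did not overlap. Its log2 change was 0.20 ± 0.09 (SE), with an adjusted p of 0.973. Ndufb7, another accessory subunit of that arm, went from 77.0 and 72.03 FPKM to 87.1 and 83.4 FPKM (0.19 ± 0.10, adjusted p = 0.973). Ndufs1 was lower with BPA in both sexes, at 30.1 and 29.7 FPKM against 32.7 and 40.7 FPKM (-0.28 ± 0.13, adjusted p = 0.973). Atp5sl, an assembly protein rather than a subunit, was also lower in both, at 9.43 and 9.16 FPKM against 10.8 and 12.3 FPKM (-0.29 ± 0.13, adjusted p = 0.973). Atp5s stood at 3.13 and 2.98 FPKM with BPA and 3.99 and 4.43 FPKM in controls (-0.36 ± 0.18, adjusted p = 0.973), at an estimated 51 to 75 fragments per library. With sex as a covariate, Ndufb2, Ndufb7, Ndufs1 and Ndufs6 had an unadjusted p under 0.05 (5.26% of members against 8.98% of rows), and 0 of 76 had an adjusted p under 0.05 (0.0148% of rows), the smallest being 0.495.

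By complex, the groups did not overlap for 13 of 32 members of complex I, 1 of 4 of complex II (Sdha, 61.6 and 61.8 FPKM with BPA against 63.9 and 62.6 FPKM), 0 of 9 of complex III, 1 of 14 of complex IV (Cox4i2) and 5 of 17 of complex V. These are shares of 40.6%, 25%, 0%, 7.14% and 29.4%, against 33.6% of all rows tested. In complex I, 7 of the 13 were higher with BPA (21.9%, against 13.8% of rows) and 6 lower (18.8%, against 19.9%). The 7 were all accessory subunits (Ndufa1, Ndufa7, Ndufa10, Ndufa12, Ndufb2, Ndufb7 and Ndufb11). The 6 that were lower held both core and accessory subunits, such as Ndufs1 and Ndufa2. The core subunits Ndufs3, Ndufv1 and Ndufv2 had changes of 0.02, 0.02 and 0.10.

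Within males, 1 library stood against 1, and the values describe those libraries without a test. The members' median log2 change was -0.05 (-0.00 over all rows tested), from -0.45 to 0.31, and 49 of 76 were below 0 (64.5%, against 50.4% of rows). A change of at least 0.25, or 1.19 times, was seen in 3 members (3.95%, against 24.5% of rows), or 1 with a mean of at least 5 FPKM, and 0 reached 1 (1.7% of rows). The rows set beside the members here were not matched to them by level. Ndufs5 (gene ID 362588), an accessory subunit of complex I, went from 85.3 FPKM in controls to 106 FPKM with BPA. Its log2 ratio by estimated fragments was 0.32 (95% interval of counting error only, 0.12 to 0.52). Ndufa4l2 went from 6.28 to 4.34 FPKM, with 48 and 33 estimated fragments and an interval of -1.22 to 0.14. Atp5s went from 3.99 to 3.13 FPKM, also within counting error (-0.89 to 0.18).

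Smaller male differences exceeded counting error in abundant genes. The interval excluded 0 for 13 of 76 members (17.1%, against 27.8% of rows), with Ndufs5 and Uqcrc1 (107 to 118 FPKM) above 0 (2.63%, against 14.2% of rows) and 11 below it (14.5%, against 13.6%). Among the 11 were Atp5b (595 to 564 FPKM), Cox4i1 (358 to 323 FPKM), Cox6c (263 to 228 FPKM), Cox8a (282 to 251 FPKM) and 6 complex I subunits. Of those, Ndufs8, a core subunit that carries iron-sulphur clusters, had the lowest log2 change of the complex (59.8 to 51.1 FPKM, -0.22). Ndufb10, of the membrane arm, stood at 111 and 95.4 FPKM (-0.22), and Ndufs7 at 68.8 and 60.01 FPKM (-0.20). Ndufa10l1, listed only in males, stood at 4.32 and 1.97 FPKM, from 52 and 24 estimated fragments (log2 ratio -1.13, interval -1.90 to -0.41).

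Within females the members' median was 0.04, against -0.04 over all rows tested. The range was -0.45 to 0.41, with 48 of 76 members above 0 (63.2%, against 43.2% of rows) and 28 below (36.8%, against 56.5%). After quantile normalization the median was 0.00. A change of at least 0.25 was seen in 5 members (6.58%, against 32.2% of rows), or 14 members after median scaling, and 0 reached 1 (2.17% of rows). Here too the rows were not matched to the members by level. Atp5l (gene ID 300677), subunit g of the ATP synthase, stood at 193 FPKM in controls and 241 FPKM with BPA. Its log2 ratio was 0.32 (interval 0.18 to 0.46). Ndufs1 stood at 40.7 and 29.7 FPKM (-0.45, interval -0.60 to -0.30), Atp5sl at 12.3 and 9.16 FPKM (-0.42, interval -0.71 to -0.14) and Atp5s at 4.43 and 2.98 FPKM (-0.57, interval -1.11 to -0.04). Cox6b2 stood at 10.17 and 13.9 FPKM, with 37 and 50 estimated fragments and an interval of -0.19 to 1.10.

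The counting interval excluded 0 in females for 17 of 76 members (22.4%, against 36.5% of rows), 14 above (18.4%, against 14.9%) and 3 below (3.95%, against 21.5%). The 3 below were Ndufs1, Atp5s and Atp5sl. Those above included Cox6a1 (345 to 395 FPKM), Cox7c (211 to 243 FPKM), Ndufa4 (216 to 241 FPKM) and Ndufb9 (111 to 132 FPKM). Those above were 5 of 32 in complex I, 0 of 4 in complex II, 2 of 9 in complex III, 4 of 14 in complex IV and 3 of 17 in complex V.

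**Figure D2:**
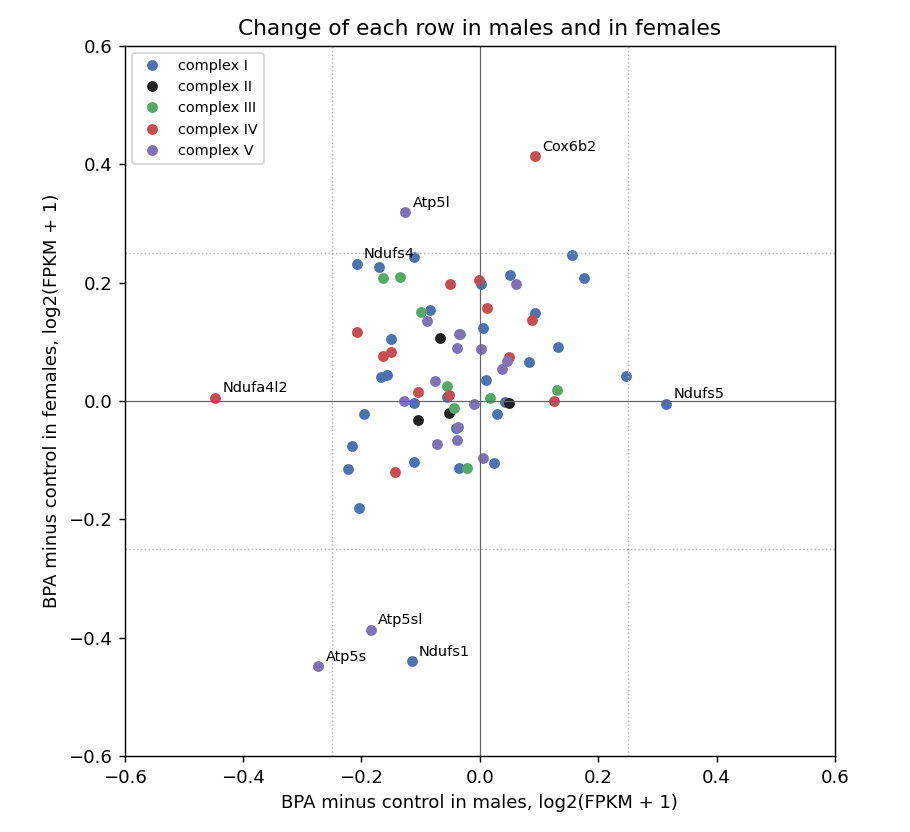
Difference BPA minus control on the log2(FPKM + 1) scale in males (horizontal axis) and females (vertical axis), 1 point for each of 75 members, coloured by complex, with dotted lines at a change of 0.25. The points form a compact cloud around 0, with Ndufs5, Ndufa4l2, Atp5l, Cox6b2, Ndufs1, Atp5s and Atp5sl outside the dotted lines.

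Taking both sexes, 69 of 76 members (90.8%, against 55.1% of rows) changed by less than 0.25 in each. All rows tested had a lower median level (10.6 FPKM) than the members (98.3 FPKM), and rows of matching level were not compared. In 28 members (36.8%, against 18.6% of rows) the male value was below 0 and the female value above 0, and the opposite was seen in 7 (9.21%, against 24.6%). The first share was 8 of 14 in complex IV, 5 of 9 in complex III, 6 of 17 in complex V, 8 of 32 in complex I and 1 of 4 in complex II. After quantile normalization it was 21 of 76, against 20.9% of rows, and after median scaling 36 of 76, against 22.9%. The difference between the sexes in their response has no residual degree of freedom with 4 libraries and was not tested.

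Ndufs4 (gene ID 499529), an accessory subunit of complex I whose loss causes a fatal brain disease, was the only member of the 76 whose counting intervals excluded 0 in opposite directions in males and females. The share of all rows tested that met this rule was not counted. Within each sex the interval excluded 0 for 27.8% (males) and 36.5% (females) of rows. For Ndufs4 the control pools stood at 55.5 FPKM (males) and 54.1 FPKM (females), and the BPA pools at 47.9 FPKM (males) and 63.8 FPKM (females). The 2 controls were close, and the BPA libraries lay on either side of them. The log2 ratio was -0.21 in males (interval -0.37 to -0.05) and 0.24 in females (interval 0.09 to 0.39), beyond counting error in both. Uqcrb, a small subunit of complex III, stood at 59.7, 54.3, 63.7 and 73.8 FPKM, with the male interval reaching 0 (-0.32 to 0.04) and the female one above it (0.05 to 0.38). Cox6c stood at 263 FPKM in control males and 228 FPKM in BPA males. Its female values were 271 and 295 FPKM, where the interval held 0 (-0.01 to 0.25).

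The sums per complex show the size of these differences. All members added up to 9691, 9410, 9477 and 9933 FPKM, which is 2.27%, 2.21%, 2.28% and 2.31% of all FPKM. In complex IV the sums were 2581, 2468, 2470 and 2661 FPKM, and in complex V they were 3230, 3146, 3256 and 3388 FPKM. Complex I summed to 2674, 2618, 2568 and 2668 FPKM. The sum was lower with BPA in males and higher with BPA in females in complexes I, IV and V, also as shares of all FPKM, whereas complexes II (305 to 316 FPKM) and III (871 to 901 FPKM) did so in FPKM but not as shares. In females the share of complex II was 0.0751% in controls and 0.0735% with BPA, and that of complex III was 0.2097% and 0.2095%.

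**Figure D3:**
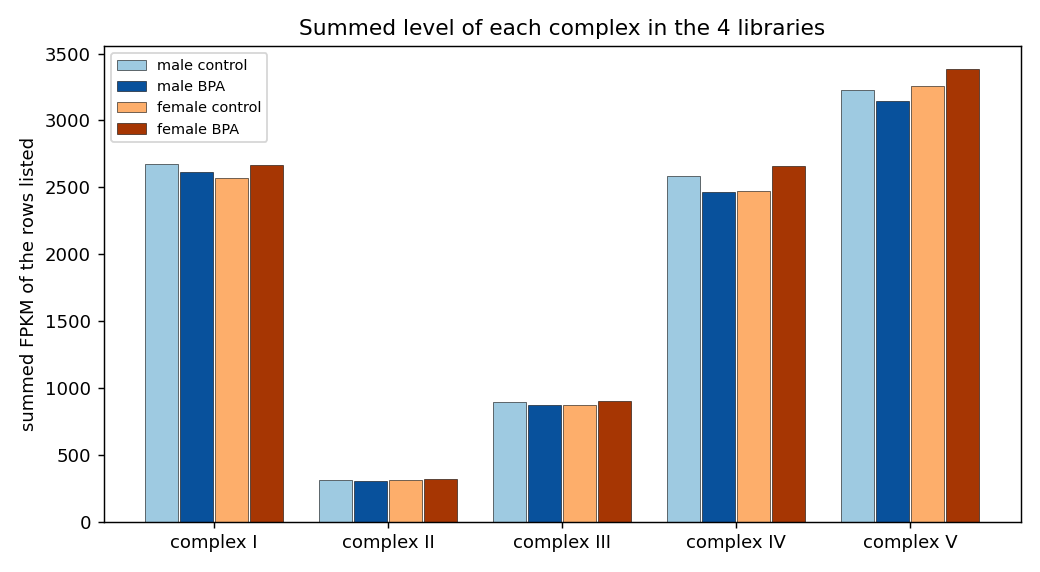
Summed FPKM of the rows listed for each complex (bars start at 0), 1 bar for each library and no error bars because there is 1 library per group. The bar with BPA is below its control in males and above it in females in all 5 complexes, from 305 to 316 FPKM in complex II up to 3146 to 3388 FPKM in complex V, while as shares of all FPKM complexes II and III were lower with BPA in females too.

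Between female and male libraries the subunits also passed no adjusted threshold, but more of them separated the groups. With limma, 0 of 76 members had an adjusted p under 0.05, against 1 of 13542 rows (0.00738%). Without adjustment 10 of 76 passed (13.2%, against 10.6% of rows). The count was 20 after quantile normalization (11.6% of rows), 3 without the library of control males (5.01%) and 17 without that of control females (12.4%). Of the 10 members, 4 were higher in females (5.26% against 3.88%) and 6 lower (7.89% against 6.76%). The female and male libraries did not overlap for 46 of 76 members (60.5%, against 42.3% of rows), 25 higher in females (32.9% against 19.8%) and 21 lower (27.6% against 22.5%). The median difference was 0.03, against -0.01 over all rows tested.

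Ndufs7, the complex I core subunit of the cluster next to quinone, had the smallest p. Both female pools, at 45.6 and 44.9 FPKM, lay below both male pools, at 68.8 and 60.01 FPKM. The female minus male log2 difference was -0.50 ± 0.09 (SE), adjusted p = 0.196, or 0.0574 with treatment as a covariate. Among the rotor subunits of the ATP synthase, Atp5e (epsilon) and Atp5d (delta), partners in the central stalk, differed in opposite directions. Atp5e was at 132 and 132 FPKM in males and 173 and 162 FPKM in females (0.34 ± 0.07, adjusted p = 0.234), and Atp5d at 104 and 103 FPKM in males and 83.5 and 83.2 FPKM in females (-0.31 ± 0.07, adjusted p = 0.248).

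In complex IV, Cox7b was higher in females, at 148 and 148 FPKM against 113 and 123 FPKM (0.33 ± 0.08, adjusted p = 0.256), and so was Cox7a2, at 241 and 254 FPKM against 200 and 207 FPKM (0.28 ± 0.07, adjusted p = 0.292). Lower in females were Cox6b2 (-0.45 ± 0.16, adjusted p = 0.397) and Cox5b, at 203 and 205 FPKM against 235 and 226 FPKM. Of 14 members of complex IV, 13 did not overlap between the sexes (92.9%, against 42.3% of rows), 7 higher (50%, against 19.8%) and 6 lower in females (42.9%, against 22.5%). In complex I, 13 of 32 did not overlap between the sexes (40.6%), and in complex II, 3 of 4 (75%). In complex III it was 7 of 9 (77.8%) and in complex V 10 of 17 (58.8%). Cox7b is on the X chromosome by RefSeq. The other 2 X-linked members, Ndufa1 and Ndufb11, differed by 0.01 and 0.03.

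**Figure D4:**
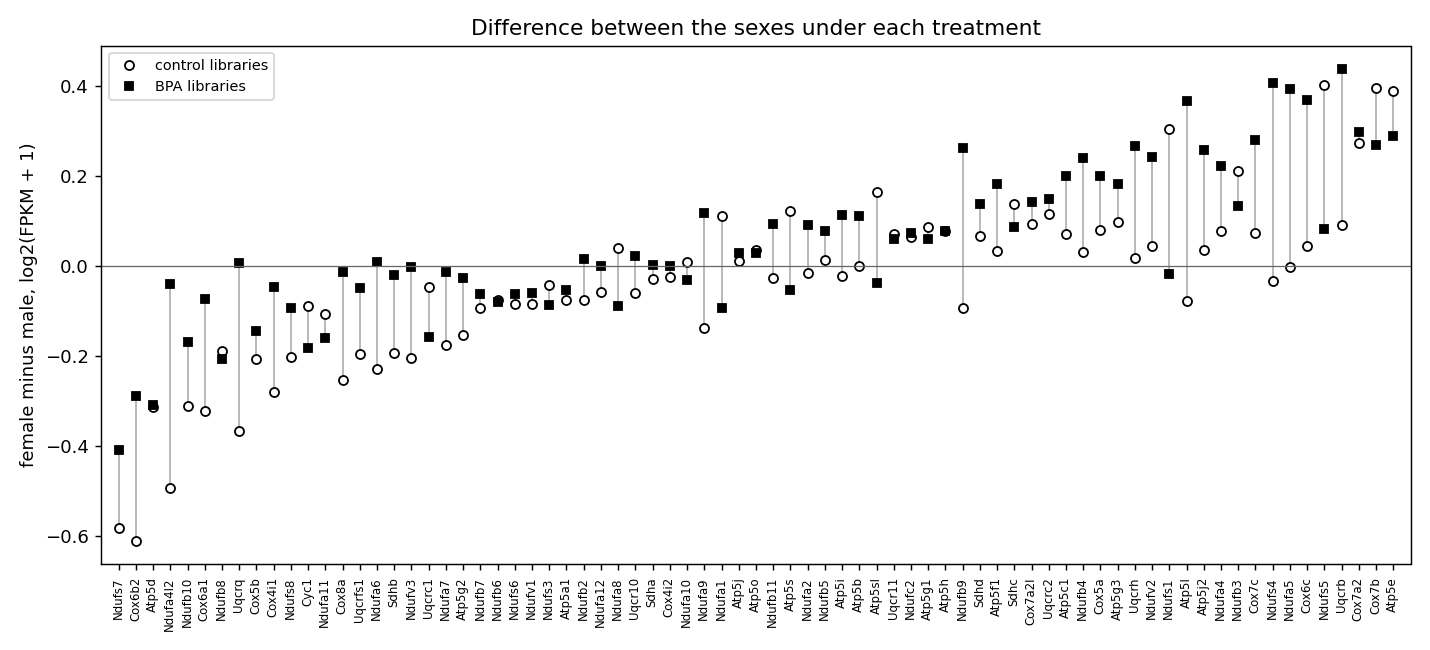
Female minus male difference on the log2(FPKM + 1) scale for each of 75 members, between the 2 control libraries (open circles) and between the 2 BPA libraries (filled squares), joined by a line and ordered by their mean. Ndufs7, Cox6b2 and Atp5d lie below 0 under both treatments and Cox7a2, Cox7b and Atp5e above 0 under both, while Ndufs4 and Ndufb9 cross 0.

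Genes that serve the complexes without being their subunits were also measured, in lists written from textbook knowledge. None of their tested members passed the adjusted threshold with BPA. Of 38 assembly factors tested, 2 had an unadjusted p under 0.05 and were higher with BPA and 3 were lower, against 1.6% and 3.11% of all rows tested. Cox16, of complex IV assembly, stood at 10.6 and 10.2 FPKM in male and female controls and 14.3 and 16.5 FPKM with BPA (0.52 ± 0.13, adjusted p = 0.973). Lyrm7, which handles the Rieske protein of complex III, stood at 8.66 and 9.68 FPKM in controls and 5.92 and 6.29 FPKM with BPA (-0.52 ± 0.14, adjusted p = 0.973). For both genes the groups did not overlap. Cox19 had a log2 change of 0.25 and Taco1, at 1.03 to 2.44 FPKM, one of -0.55.

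Among 15 tested regulators of mitochondrial biogenesis 0 had an unadjusted p under 0.05 (4.7% of all rows tested), and their median change was 0.11. The extremes were Pprc1 (0.30) and Tfb2m (0.26) at the upper end and Polg2 (-0.22) and Mterf3 (-0.07) at the lower end. Of 12 electron carriers and inhibitors only Etfb, of the electron transfer flavoprotein, had an unadjusted p under 0.05, at 28.0 and 27.7 FPKM in controls and 23.9 and 21.8 FPKM with BPA (-0.28 ± 0.11, adjusted p = 0.973). Coq9, needed to make the quinone, had a change of -0.31, Higd2a one of 0.16 and Chchd2 one of 0.05. Among 13 enzymes of the TCA cycle 0 had an unadjusted p under 0.05. Their changes ran from -0.18 for Suclg1 to 0.03 for Dld, with Ogdh at -0.16 and Idh3b at 0.02.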

How the data were processed

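The authors deposited 1 FPKM value per row and library, to 2 decimals with 0.01 as the lowest. The submitters' processing notes name HISAT 0.1.6, Bowtie2 2.2.5, RSEM and the build rn6. Annotated genes carry numeric gene IDs, and new gene models were added. FPKM divides by length and library total, so a very abundant message can shift all other values of its library, and short genes are less precise.

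Files were joined on row names. Values were log2(FPKM + 1), over the 13542 rows listed in all 4 libraries with a mean of at least 1 FPKM, and tested with limma 3.58.1 (R 4.3.3, eBayes with trend, Benjamini-Hochberg adjusted p under 0.05), after a test on simulated data. With 1 pool per group, p-values rest on the spread across the other factor, with 2 residual degrees of freedom. Fragments per row were estimated from the steps of low values in rows of 300 to 1500 bases (94.0% to 98.3% of low values within 0.15 of a whole number), and exact 95% intervals of the ratio cover counting error only. Python 3.11.15 with pandas 2.3.3 and scipy 1.17.1 was used.

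Members and lists were chosen with earlier results of these data known. Named members were the 3 highest and the lowest of each complex, complex I core, complex II and isoform lists, the 5 highest and 5 lowest changes in males, females and both, the 5 smallest p between the sexes, and the 3 widest and 3 narrowest ranges, with the 2 highest and 2 lowest of each other list. Other members named (such as Uqcrc1, Cox7c and Cox5b) were chosen after their values were seen. Alternatives were other pseudocounts, filters and scalings, covariates, summed gene models and leaving out each library. RefSeq matched all 78 gene IDs, 60 under the same symbol. One member entered every count and sum but is not reported or drawn here.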

Additional observations from a re-analysis of the deposited data

Results flagged for a closer look

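Ndufs4 moved in opposite directions in the 2 sexes. The BPA effect in females minus that in males was 0.44 on the log2(FPKM + 1) scale, from -0.21 in males and 0.23 in females. It was marked because the single male pair and the single female pair lay on opposite sides of 0, each beyond counting error. How many of all rows tested met that rule was not counted. The difference was not tested, since 4 libraries in 4 groups leave 0 residual degrees of freedom.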

How the results depend on the processing

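Of 76 summary values under the alternatives, 72 kept their call or moved by less than 1.5 times or the spread. The spread used for the medians with BPA was 0.06, wider than the main median of 0.01. A change of sign could thus count as kept. None of 1830 values of single members reversed a call, but 0 members passed the adjusted threshold in the main fits, so there was none to reverse. Single members did cross a change of 0.25, as counted below. No member passed the adjusted threshold under any alternative run. The number of members past a change of 0.25 in males was 1 in place of 3 with a mean of at least 5 FPKM. It was also 1 with a smaller list, an alternative chosen after seeing the data. That list leaves out some rows whose product is not a subunit, or is a minor isoform or pseudogene, but keeps Cox6b2. In females the number was 14 in place of 5 with median scaling and 3, Cox6b2 among them, with the smaller list. Median scaling moves the female BPA library most, by construction. The number of members with an unadjusted p under 0.05 between the sexes was 10, and became 20 with quantile normalization, 3 without the male control library and 17 without the female control library. The members' median with BPA ran from -0.04 to 0.03 when each library was left out, below 0 without female control (-0.02) or female BPA (-0.04), and the median between the sexes from 0.01 to 0.05. Summing new gene models touched Ndufb4 and Uqcrb alone. No paired analysis was possible because the labels carry no shared replicate numbers, apart from the fits with sex or treatment as a covariate. Those fits changed no adjusted call of a member. Over all rows tested, adjusted calls went from 0 to 2 with BPA and from 1 to 55 between the sexes. With 1 pool per group, litter, pool and treatment cannot be told apart, and the counting intervals of members under 20 FPKM are wide.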
